A study of Homo sapiens with 2 samples.

Results

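The immediate early gene-high cells of MDA-MB-231 mammospheres are the cells in which transcripts of FOS, JUN, JUNB, EGR1, IER2, IER3 and ATF3 take the largest share of all transcripts. They were chosen by that share. Within each library, barcodes with at least 1000 UMIs (unique molecular identifiers, the tags that mark single captured transcripts) were ranked, and the highest 10% were taken as high cells. They were compared with the lowest 50% of the same library, the low cells, and the remaining 40% are called middle cells. This gave 174 high cells of 1744 ranked cells, among 2000 deposited barcodes. The library without metformin gave 94 high and 472 low cells of 944, and the library with metformin gave 80 high and 400 low cells of 800.

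MDA-MB-231 is an established line of mesenchymal breast cancer cells without hormone receptors or HER2 amplification. Its cells had grown attached to plastic for 30 days, in high-glucose DMEM with metformin, a biguanide drug, at 0 mM or 2 mM, then for 10 days as mammospheres, spheres that float on low-attachment plates. The spheres were taken apart with trypsin and EDTA before capture. The labels give 1 library per dose and name no separate cultures, so values have no replicate check and stand without tests or p-values. Below, 0 mM and 2 mM name the 2 libraries, and levels are CPM, the UMIs of a gene in the summed cells of a class scaled to a common total of 1000000 UMIs.

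Immediate early genes are transcribed within minutes of a stimulus from factors that are already present in the cell, and most of their transcripts are short-lived. FOS, JUN and JUNB encode subunits of the transcription factor AP-1, ATF3 a related leucine zipper factor, and EGR1 a zinc finger factor. IER2 and IER3 encode small proteins that growth factors, and for IER3 also NF-kB, are known to induce. Growth factor signals reach many of these genes through ERK kinases and serum response factor, which binds the CArG box. Signals of cytokines and damage act through NF-kB at kappaB sites, and interferons act through the interferon-stimulated response element.

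Short stretches of 4 promoters are shown to give an example of each element, 1 from a rule gene and 3 from genes outside the rule that are described below. Genes with and without an element were not compared. They are RefSeq promoter sequence of build GRCh38.p14, read 5′ to 3′ on the gene's strand and ending before the transcription start, and capitals mark the element. EGR1, which helped to choose the cells, holds 2 CArG boxes at chr5:138465354-138465425 on the plus strand. DUSP1, an immediate early phosphatase outside the rule, holds the cyclic AMP response element TGACGTCA at chr5:172771293-172771340 on the minus strand. NFKBIA, the NF-kB inhibitor that NF-kB itself induces, holds a kappaB site at chr14:35404801-35404850 on the minus strand. ISG15, a ubiquitin-like interferon-induced protein, holds 2 overlapping interferon-stimulated response elements at chr1:1013364-1013419 on the plus strand.
EGR1: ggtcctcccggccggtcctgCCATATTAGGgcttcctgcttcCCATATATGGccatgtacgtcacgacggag
DUSP1: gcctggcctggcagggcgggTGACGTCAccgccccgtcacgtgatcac
NFKBIA: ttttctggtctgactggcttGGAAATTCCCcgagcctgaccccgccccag
ISG15: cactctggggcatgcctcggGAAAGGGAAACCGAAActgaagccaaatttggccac

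The elements were searched on both strands of the window from 250 bases before to 50 bases after each start, in 35116 promoters of 27305 genes. Shares of all promoters count promoters, while a gene of a list counted if any of its promoters matched. These are unlike units, which raises the list shares. The CArG box was in 1.29% of all promoters and in 1 of the 6 rule genes with an entry, EGR1. IER3 had no entry. TGACGTCA was in 1.85% of all promoters and in 5 of 32 other immediate early genes with an entry, JUND, DUSP1, ZFP36L1, MAFF and PPP1R15A. The kappaB site was in 11.3% of all promoters and in 7 of 12 genes of the NF-kB list, among them NFKBIA, TNFAIP3 and BIRC3. The interferon-stimulated response element, searched as GAAANNGAAA, was in 3.57% of all promoters and in 18 of 25 genes of the interferon-stimulated list and in 0 of 20 S phase and 0 of 38 G2/M genes. The kappaB site was also in 8 of 32 other immediate early, 9 of 25 interferon-stimulated, 6 of 20 S phase and 4 of 38 G2/M genes. The AP-1 site TGANTCA was in 7.71% of all promoters, in 0 of 6 rule genes and in 1 of 32 other immediate early genes. These are matches of letters and not sites shown to be bound in these cells, and the counts themselves were made on another build, hg19.

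The cut between high and other cells fell within a continuous range. The highest cell held 1.66% of its UMIs in the 7 genes at 0 mM and 0.681% at 2 mM. The last cell inside held 0.263% at 0 mM, which was 10 of 3809 UMIs, and the first cell outside held 0.262%, which was 9 of 3437. At 2 mM the last cell inside held 0.178%, or 9 of 5051 UMIs, and the first outside 0.177%, or 8 of 4524. High cells held a median of 11 rule UMIs at 0 mM (3 to 60) and of 8 at 2 mM (2 to 39), so single cells were placed on few molecules. When UMIs were divided at random into 2 sets and the cells ranked on 1 of them, 68 of 94 (72.3%) and 52 of 80 (65.0%) of the cells so chosen were also high on all UMIs. That set is itself part of all UMIs, so the 2 rankings are not independent and these shares are raised by construction.

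IER3 gave 47.7% of the rule UMIs of the high cells at 0 mM and 42.3% at 2 mM, more than any of the other 6 genes. As a description of the choice, IER3 stood at 1872 CPM in high, 777 in middle and 237 in low cells at 0 mM. At 2 mM the same gene stood at 1118, 532 and 142 CPM. JUN stood at 593, 192 and 66.0 CPM at 0 mM and at 544, 190 and 37.7 CPM at 2 mM. These classes were cut on these genes, so the order of the values follows from the rule.

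FOS stood at 506 CPM in high, 130 in middle and 19.97 in low cells at 0 mM, and at 158, 52.4 and 7.27 CPM at 2 mM. EGR1 stood at 288, 30.5 and 7.38 CPM at 0 mM and at 84.6, 7.49 and 3.97 CPM at 2 mM. JUNB had 372 CPM in high cells at 0 mM and 390 at 2 mM, and IER2 had 241 and 294. ATF3 rested on the fewest UMIs, 17 and 14 in high cells, which gave 49.4 and 51.5 CPM. A UMI of FOS or EGR1 was found in 59 of 94 high cells at 0 mM (62.8%) and in 26 of 80 at 2 mM (32.5%), against 9.96% and 3.25% of low cells.

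**Figure D1:**
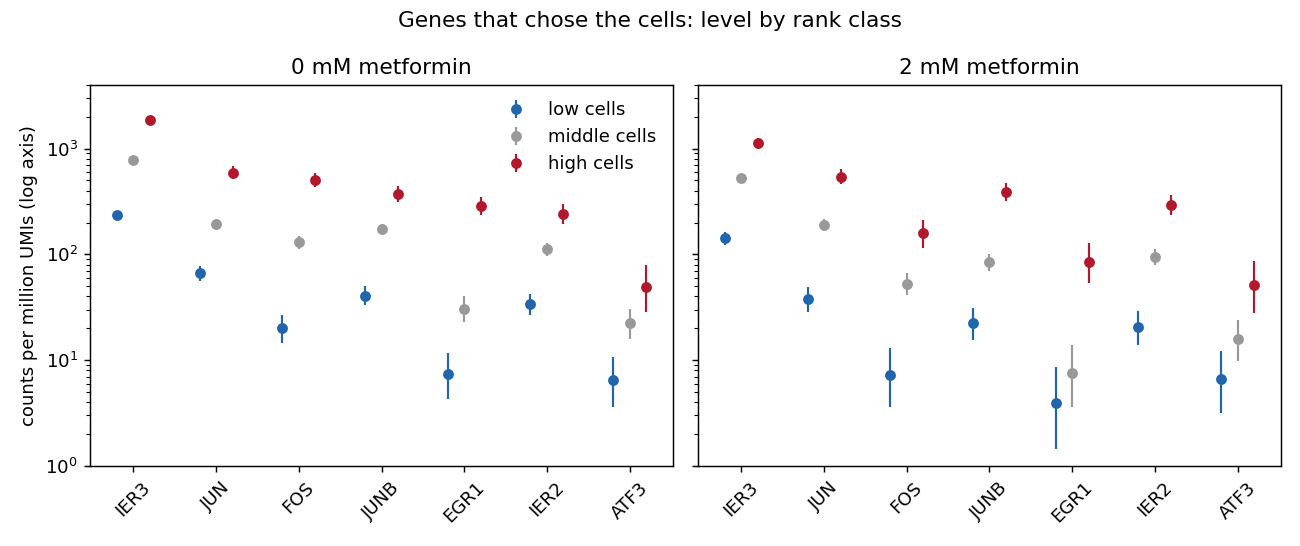
Level of the 7 genes that chose the cells in low, middle and high cells of each library, in CPM on a log axis, with exact 95% Poisson intervals for counting error. The order of the classes follows from the rule; IER3 gives the most UMIs in every class, and at 0 mM EGR1 and FOS have the steepest descent from high to low cells.

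To see whether the 7 genes were high in the same cells without using the gene that is read, each gene was measured in cells ranked by the other 6. EGR1 was 17.2-fold higher in the cells so chosen than in the low cells of the same ranking at 0 mM (95% interval 10.8 to 28.2) and 14.1-fold at 2 mM (5.62 to 39.9). FOS was 6.67-fold (5.12 to 8.69) and 3.37-fold higher (1.99 to 5.60). JUN was 3.98-fold and 2.76-fold higher, JUNB 3.44-fold and 6.08-fold, and IER2 4.03-fold and 4.55-fold. ATF3 was 3.996-fold higher at 0 mM, and at 2 mM the value was 2.06-fold with an interval that spans 1 (0.786 to 4.89).

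In cells ranked without IER3, that gene was 1.93-fold higher than in low cells at 0 mM (1.69 to 2.19) and 1.28-fold at 2 mM (1.04 to 1.56). These were the smallest of the 7 ratios in both libraries, but the 7 ratios rest on unlike rankings. IER3 gave 52.9% and 51.5% of the rule UMIs of all ranked cells. Without it, 62.8% and 52.5% of the high cells stayed high. Without any 1 of the other genes, 73.8% to 97.5% did. In all, 24 of 94 cells (25.5%) at 0 mM and 9 of 80 (11.3%) at 2 mM were in the highest 10% both by IER3 alone and by the other 6 genes. Of 2 unrelated sets of this size, each would share about 10% of its cells with the other. The overlap lay above that share at 0 mM and near it at 2 mM, so the libraries differed here. All intervals here treat each UMI as a separate draw, cover counting error only and leave out the spread between cells, so they are too narrow.

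Outside the rule, 3504 genes reached at least 50 CPM over the ranked cells of each library and were compared. Of these, 132 (3.77%) were at least 1.5-fold higher in high than in low cells in both libraries, and 122 (3.48%) were at least 1.5-fold lower. At 2-fold the counts were 47 and 20, and 9 genes passed 1.5-fold in opposite directions. The median log2 ratio of all compared genes was -0.01 at 0 mM and -0.08 at 2 mM. With TMM factors, another scaling of the totals, that median moved by -0.16 at 0 mM and -0.06 at 2 mM, which is further from 0. The counts became 97 higher and 211 lower, so the share of higher genes among those called was 31.5% in place of 52.0%. With totals that leave out rule, mitochondrial and ribosomal protein genes, 117 were higher and 154 lower, a share of 43.2%. Cells were also ranked on counts thinned to 1000 UMIs each, with ties by column order. Then 61 genes were higher and 32 lower, and 29 of 36 followed genes moved beyond their interval, with 0 reversed. After thinning, 567 of 944 cells at 0 mM and 382 of 800 at 2 mM held a rule UMI. Column order thus placed many tied cells. It can follow depth, as given below for the last groups at 2 mM, so this ranking does not remove depth.

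The 15 genes with the firmest high ratios were IFNL1, G0S2, ZFP36, IL6, DUSP1, KLF4, SOD2, SDC4, IL8, IFIT2, CD55, CXCL11, GBP3, NOV and CH25H, by the interval bound nearest 1 in the worse library. G0S2, an inhibitor of fat breakdown that was found as a cell cycle switch gene, stood at 541 CPM in high, 255 in middle and 92.0 in low cells at 0 mM, and at 309, 114 and 49.6 CPM at 2 mM. Its ratios of high over low were 5.88 (4.80 to 7.19) and 6.23 (4.51 to 8.62). SDC4, a cell surface proteoglycan, stood at 930 CPM in high and 306 in low cells at 0 mM, and at 1199 and 245 at 2 mM. CD55, which protects cells from complement, stood at 817 and 295 CPM, and at 497 and 172.

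**Figure D2:**
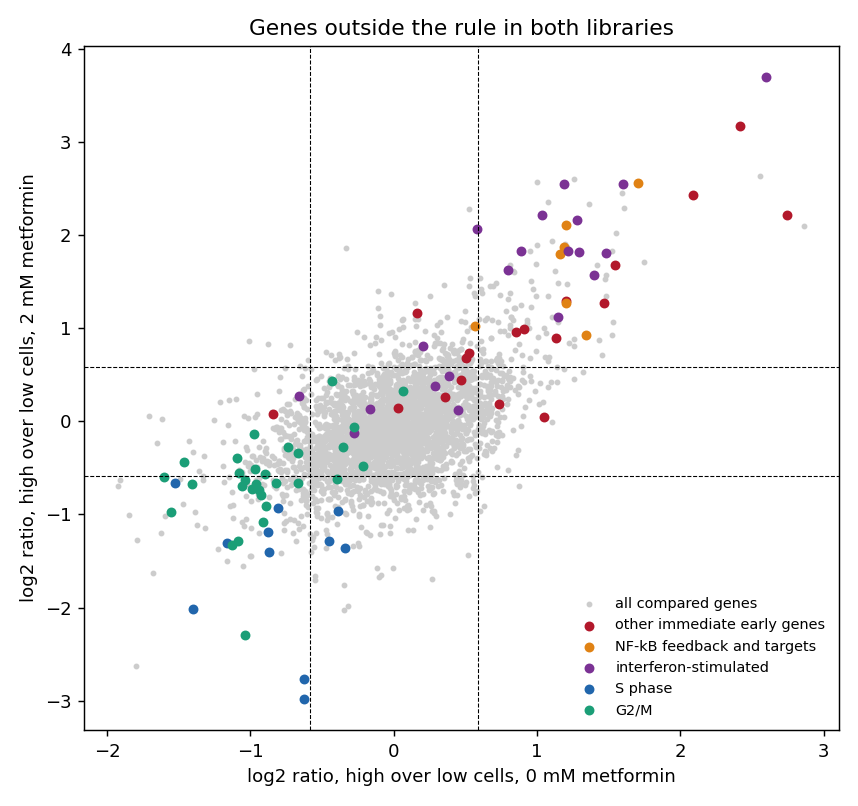
Log2 ratio of high over low cells for each of the 3504 compared genes, with the 0 mM library on the horizontal and the 2 mM library on the vertical axis; dashed lines mark 1.5-fold either way and colours mark members of 5 gene lists. Past both lines at the upper right lie 132 genes, among them 9 other immediate early, 6 NF-kB and 12 interferon-stimulated genes, and at the lower left 122, among them 8 S phase and 16 G2/M genes; most genes in either corner belong to none of these lists.

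Other immediate early genes were higher in the high cells although they had no part in the choice. Of 18 compared genes of this list, 9 were at least 1.5-fold higher in both libraries and 0 were lower, and the median log2 ratio was 0.88 at 0 mM and 0.93 at 2 mM (0.59 and 0.61 when ranked on thinned counts). DUSP1, the phosphatase that switches off MAP kinases, stood at 317 CPM in high, 88.0 in middle and 47.3 in low cells at 0 mM, and at 188, 72.7 and 40.3 CPM at 2 mM. Its ratio was 6.70 (5.09 to 8.82) and 4.65 (3.14 to 6.86). ZFP36, which binds AU-rich messenger RNAs of cytokines and leads to their decay, stood at 160, 56.9 and 30.0 CPM, and at 239, 53.2 and 26.5 CPM. Its ratio was 5.34 (3.68 to 7.72) and 9.04 (6.004 to 13.8), with the middle cells between the other classes in both libraries.

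KLF4, a zinc finger transcription factor, was 4.25-fold (2.97 to 6.05) and 5.39-fold higher (3.75 to 7.74). NFKBIZ, a nuclear cofactor of NF-kB, was 2.91-fold and 3.21-fold higher, and ZFP36L2, a relative of ZFP36, 2.77-fold and 2.41-fold. MCL1, a survival factor of the BCL2 family with a short-lived protein, was 2.30-fold and 2.44-fold higher. PPP1R15A, the phosphatase subunit that ends the integrated stress response, was 2.19-fold and 1.85-fold higher, CITED2 1.88-fold and 1.98-fold, and KLF6 1.81-fold and 1.95-fold.

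The list also held members that did not pass in both libraries. MYC had ratios of 1.44 and 1.67, CYR61 1.42 and 1.60, and TIPARP 1.39 and 1.36. ID1 had 1.66 and 1.14, CTGF 2.06 and 1.03, and FOSL1 1.12 and 2.23. ZFP36L1 (1.02 and 1.11), BTG1 (1.28 and 1.201) and PLK2 (0.558 and 1.06) lay near or below 1 in at least 1 library. Of 42 members in the table, 24 missed 50 CPM over the ranked cells of at least 1 library. Among these, NR4A2, an orphan nuclear receptor, stood at 55.2 CPM in high and 6.95 in low cells at 0 mM and at 73.6 and 5.95 CPM at 2 mM. FOSB, the AP-1 subunit nearest to FOS, rested on 10 and 9 UMIs in high and low cells at 0 mM and on 4 and 2 at 2 mM. FOSL2 went the other way, with 29.1 CPM in high and 33.4 in low cells at 0 mM and 36.8 and 54.9 at 2 mM. Some others were lower in 1 library, on few UMIs.

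**Figure D3:**
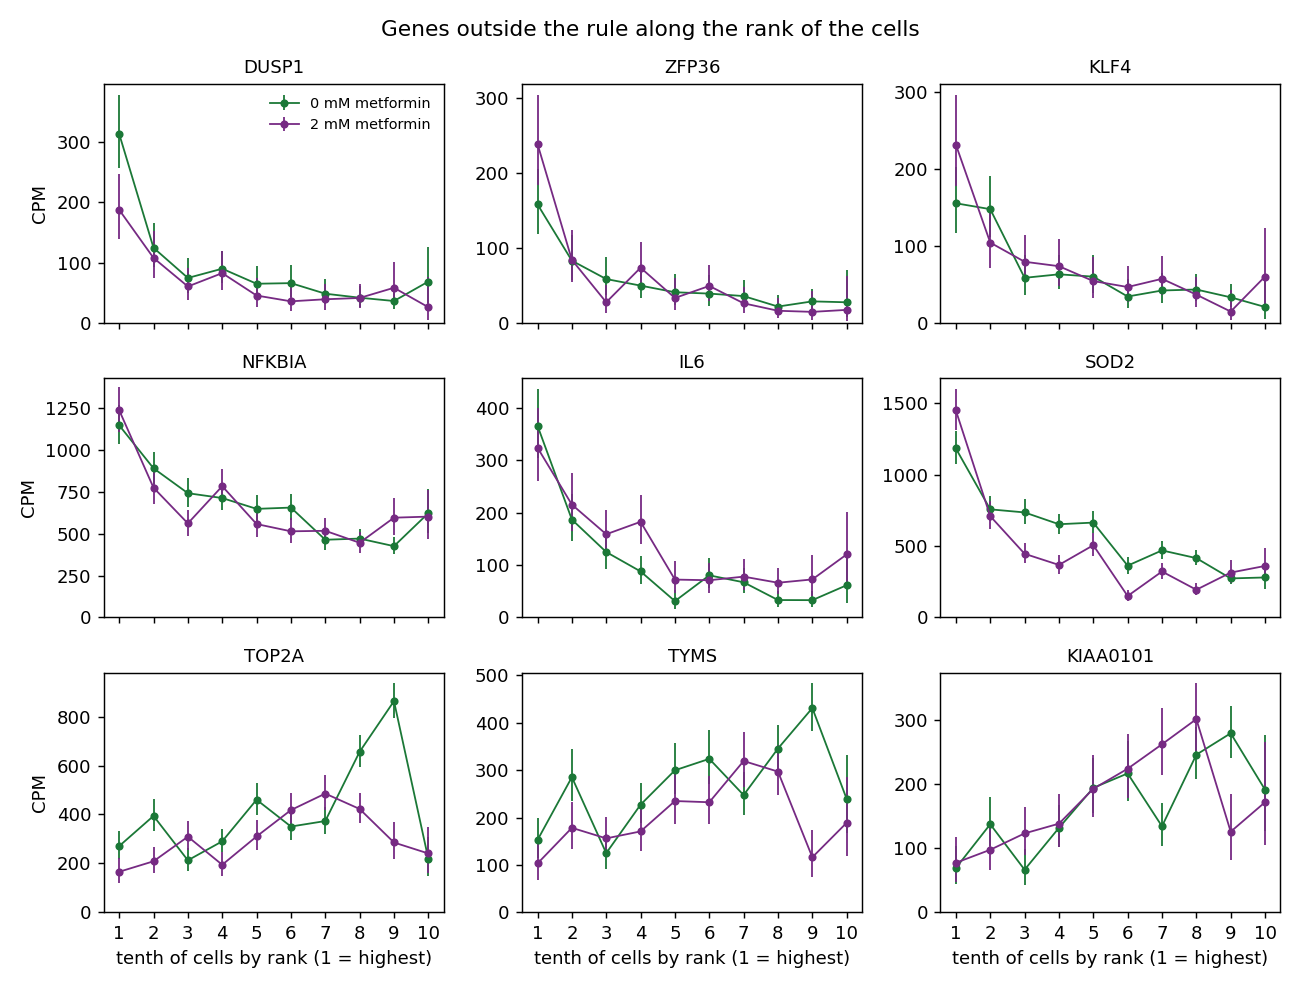
Level in CPM of 9 genes outside the rule in 10 equal groups of cells by rank, 1 being the highest, with exact 95% Poisson intervals; lines join the values of 1 library. DUSP1, ZFP36, KLF4, NFKBIA, IL6 and SOD2 are highest in the first group in both libraries. TOP2A, TYMS and KIAA0101 are lower there than in groups 6 to 8. At 0 mM, however, TOP2A and TYMS are lower still in group 3 (212 and 125 CPM) than in group 1 (271 and 153). TOP2A at 0 mM is highest in groups 8 and 9 (657 and 864 CPM), which have the highest median depths, 5010 and 5868.5 UMIs. The last group holds shallow cells that lack any rule UMI.

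DUSP1 and KLF4 were also found in a larger share of high cells than of low cells. With every cell thinned to 1000 UMIs, DUSP1 was found in 26.6% of high and 4.66% of low cells at 0 mM, and in 15% and 4.25% at 2 mM. Without thinning the shares were 48.9% and 16.5%, and 30% and 11%, at median depths of 2690 and 3725.5 UMIs and of 2957.5 and 3052.5 UMIs. KLF4 was found in 24.5% and 2.12% of thinned cells at 0 mM, and in 10.0% and 3.75% at 2 mM. RNA free in the droplet mixture can give such UMIs, and its part was not tested.

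Feedback genes of the ERK pathway and EGFR ligands were higher in part. Of 6 compared, 3 passed 1.5-fold upwards in both libraries, and 0 passed downwards. DUSP6, the ERK-specific phosphatase, was 2.39-fold and 1.76-fold higher. PLAUR, the urokinase receptor, was 1.75-fold and 3.20-fold higher, and the ligand EREG 1.85-fold and 2.37-fold. PHLDA1 had ratios of 1.43 and 0.987, DUSP4 of 1.36 and 1.01, and ERRFI1 of 0.947 and 0.924.

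Of 7 compared genes of the NF-kB list, 6 were at least 1.5-fold higher in both libraries, with median log2 ratios of 1.202 and 1.79 (0.72 and 0.80 when ranked on thinned counts). SOD2, the mitochondrial superoxide dismutase, stood at 1195 CPM in high, 697 in middle and 367 in low cells at 0 mM, and at 1449, 500 and 245 CPM at 2 mM. NFKBIA stood at 1148, 743 and 498 CPM, and at 1236, 664 and 513 CPM, which gave ratios of 2.30 (2.05 to 2.59) and 2.41 (2.12 to 2.74). The adhesion molecule ICAM1 was 2.30-fold and 4.32-fold higher, TNFAIP2 2.28-fold and 3.67-fold, and the apoptosis inhibitor BIRC3 2.53-fold and 1.90-fold. BIRC2, with ratios of 1.48 and 2.04, was the member that missed.

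The overlap of cells showed the same list. Of the high cells, 31.9% at 0 mM and 28.8% at 2 mM were also among the 10% of cells with the highest share of NF-kB list UMIs, against 4.45% and 5.50% of low cells. Exact binomial intervals of the high cells' shares were 22.7% to 42.3% and 19.2% to 40.0%.

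Cytokines followed in part. IL6 stood at 366 CPM in high, 105 in middle and 50.4 in low cells at 0 mM, and at 324, 156 and 75.4 CPM at 2 mM, which gave ratios of 7.27 (5.61 to 9.44) and 4.29 (3.21 to 5.72). IL8, the neutrophil chemokine also called CXCL8, was 3.35-fold (2.70 to 4.14) and 3.28-fold higher (2.61 to 4.11). At 0 mM, 3 cells held 63.4% of the IL8 UMIs and 45.2% of the IL6 UMIs of the high cells. CXCL1 had ratios of 2.496 and 1.45, CSF1 of 1.44 and 1.60, and CCL5 of 1.44 and 4.85, so each of these passed 1.5-fold in 1 library only. In all, 2 of 5 compared cytokines passed in both.

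Interferon-stimulated genes were the list with the most members higher in both libraries by count, 12 of 20 compared (60%), and 0 were lower. By share the NF-kB list came first, with 6 of 7 (85.7%), where 3.77% of all compared genes were higher. IFNL1 is itself a member of the interferon-stimulated list. The median log2 ratio was 0.96 at 0 mM and 1.71 at 2 mM (0.51 and 0.91 when ranked on thinned counts). ISG15 stood at 3253 CPM in high, 2625 in middle and 1756 in low cells at 0 mM, and at 4454, 1396 and 1254 CPM at 2 mM. IFIT3, an RNA-binding antiviral protein, was 2.32-fold (2.10 to 2.56) and 3.55-fold higher (3.18 to 3.96), and IFIT2 2.63-fold and 2.98-fold. The chemokine CXCL11 was 3.04-fold and 5.87-fold higher, and ISG20, an exonuclease, 2.28-fold and 5.86-fold. BST2 (0.825 and 0.918) and IFI27 (0.631 and 1.21) did not share this.

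IFNL1, a type III interferon and the only interferon among the named genes, had the firmest ratio of all, 6.04 (4.63 to 7.88) at 0 mM and 13.0 (10.2 to 16.6) at 2 mM, but its UMIs sat in few cells. A UMI of IFNL1 was found in 8 of 94 high cells at 0 mM and in 11 of 80 at 2 mM, and 3 cells held 88.3% and 73.6% of the UMIs. Without all cells that held an IFNL1 UMI, ranked anew, the median log2 ratio of the interferon-stimulated list was 0.70 at 0 mM and 0.69 at 2 mM. That alternative was chosen after seeing the data.

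**Figure D4:**
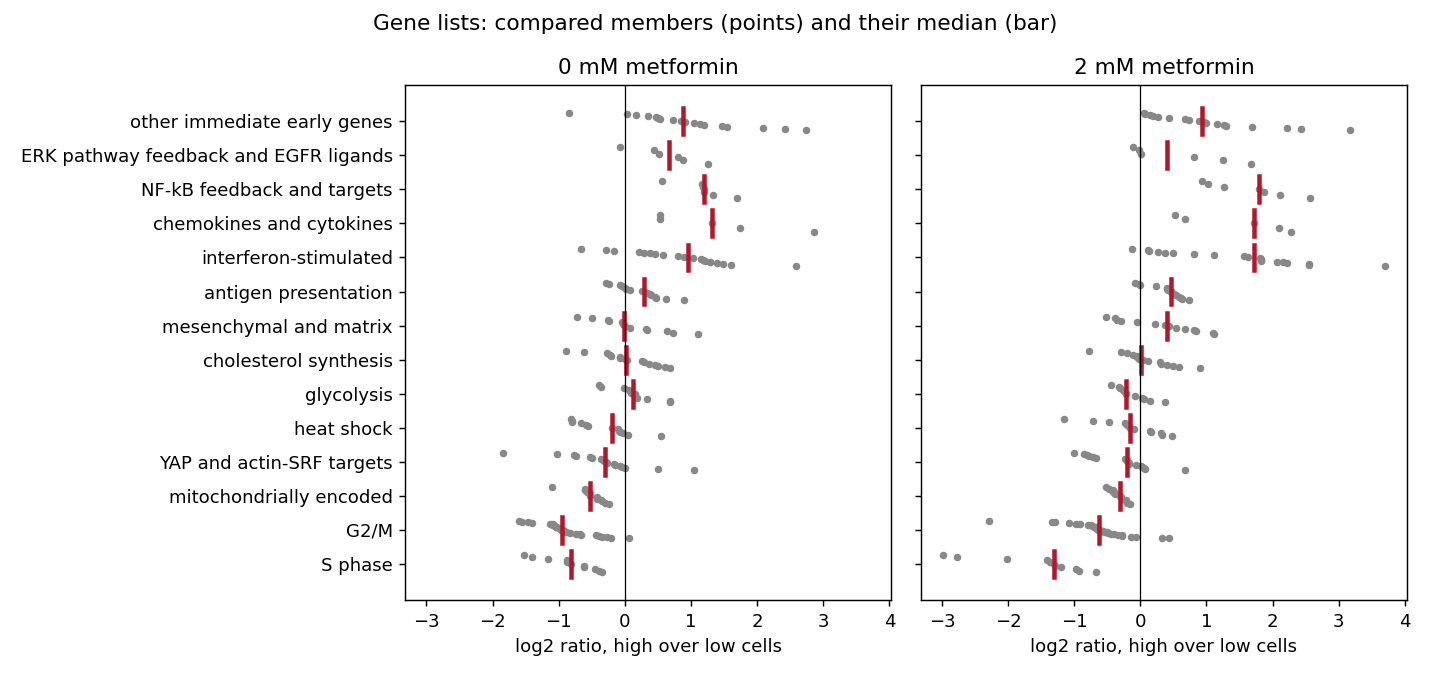
Log2 ratio of high over low cells for the compared members of 14 gene lists (points) and their median (bars), in each library on the same scale. Medians of the NF-kB, cytokine, interferon-stimulated and other immediate early lists lie to the right of 0 in both libraries, from 0.88 to 1.79, and those of the S phase and G2/M lists to the left, from -0.63 to -1.30.

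Transcripts of cell division were lower in the high cells. Of 11 compared S phase genes, 8 were at least 1.5-fold lower in both libraries and 0 were higher, with median log2 ratios of -0.81 and -1.30 (-0.58 and -0.54 when ranked on thinned counts). TYMS, thymidylate synthase, stood at 151 CPM in high, 236 in middle and 339 in low cells at 0 mM, and at 103, 184 and 254 CPM at 2 mM. CLSPN, a replication checkpoint protein, had ratios of 0.378 (0.204 to 0.646) and 0.246 (0.0975 to 0.520), and the helicase subunit MCM6 0.649 and 0.126.

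Of 30 compared G2/M genes, 16 were at least 1.5-fold lower in both libraries, with medians of -0.95 and -0.63. CDK1, the mitotic kinase, had ratios of 0.488 (0.338 to 0.685) and 0.204 (0.0809 to 0.428). TOP2A, DNA topoisomerase II alpha, stood at 270 CPM in high, 339 in middle and 575 in low cells at 0 mM, and at 166, 258 and 405 CPM at 2 mM, and 3 cells held 60.2% and 57.8% of the UMIs that the high cells had. Its share of thinned cells differed less, 14.9% (8.39% to 23.7%) of high and 17.8% of low cells at 0 mM. At 2 mM it was 10% (4.42% to 18.8%) and 17.3%. At least 3 UMIs of the G2/M list were in 39.4% of high and 57.0% of low thinned cells at 0 mM, and in 27.5% and 43% at 2 mM. KIAA0101, a partner of the replication clamp PCNA, had the firmest low ratio, 0.312 (0.198 to 0.470) and 0.324 (0.198 to 0.502). Other genes with the firmest low ratios were HIST1H4C, VRK1, TUBA1B, UBE2C, ZWINT, STMN1, EXOSC8 and ATAD2, most of which are known from replication or mitosis. Of the high cells, 2.13% at 0 mM and 3.75% at 2 mM were among the 10% of cells with the highest share of S phase UMIs, against 13.8% and 12.3% of low cells. For the G2/M list these shares were 4.26% against 11.2% at 0 mM, and 8.75% (exact interval 3.59% to 17.2%) against 42 of 400 low cells at 2 mM, where the interval holds the low cells' share.

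A restriction to cells with few cycle transcripts was added after seeing these values. It kept cells with under 3 UMIs of each cycle list after thinning, 425 at 0 mM and 473 at 2 mM, of which 43 and 47 were high when ranked anew. Then 126 genes were higher and 90 lower in both libraries, and the median log2 ratio was 1.11 and 0.89 for the other immediate early genes, 0.94 and 1.74 for the NF-kB list and 0.77 and 1.58 for the interferon-stimulated list. These medians kept the sign they had over all ranked cells. The S phase median became 0.37 at 0 mM and -0.68 at 2 mM and the G2/M median 0.065 and -0.054, in cells that were chosen for few such transcripts.

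Genes of actin and its regulation by YAP and serum response factor leaned the other way. Of 18 compared, 4 were at least 1.5-fold lower in both libraries, THBS1, TPM1, CNN2 and MYL9, and 0 were higher. THBS1, the matrix protein thrombospondin, stood at 55.2 CPM in high and 199 in low cells at 0 mM, and at 191 and 385 at 2 mM. TPM1, a tropomyosin, had ratios of 0.586 and 0.555. CYR61 and CTGF, which are on this list and on that of the immediate early genes, had the values given above. Ranked by the 6 genes without IER3, chosen after seeing the data, 3 of 18 were higher and 1 lower in both libraries. The median log2 ratios were then -0.16 and -0.0013, in place of -0.30 and -0.19. CYR61 had ratios of 2.38 and 3.64 in that ranking, and CTGF 1.81 and 2.13. By IER3 alone 0 passed either way, with medians of -0.31 and -0.22. Heat shock genes were not high as a list, with 0 of 13 higher and 2 lower, HSPD1 (0.567 and 0.607) and HSPE1 (0.632 and 0.450), which form the mitochondrial chaperonin. HSPA1B, the inducible cytosolic chaperone, had 1.46 and 1.11.

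Other single genes passed in both libraries within lists that did not move as a whole. CDKN1A, the p53 target that inhibits cyclin-dependent kinases, was 2.79-fold and 2.55-fold higher. WARS, a tRNA synthetase that interferon gamma also induces, was 2.39-fold and 6.09-fold higher, XBP1 1.64-fold and 2.81-fold, and PTX3, a soluble pattern receptor, 2.00-fold and 5.95-fold. TIMP1 (1.55 and 2.13), TIMP3 (1.65 and 1.60) and LOX (2.15 and 2.18), which act on the matrix, were the 3 of 14 mesenchymal and matrix genes that passed. The nuclear RNA NEAT1 was 1.79-fold and 1.70-fold higher. Glycolysis had 0 of 12 genes past 1.5-fold in both libraries in either direction, NRF2 targets 0 of 15 and the ID and TGF-beta list 0 of 5. The ID and TGF-beta list still leaned upwards, with median log2 ratios of 0.51 and 0.44 and 4 of 5 members above 1 in both libraries. Of the high cells, 21.3% and 18.8% were among the 10% highest in its UMIs, against 6.99% and 7.5% of low cells.

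Since IER3 gave so large a part of the rule UMIs, the high cells were divided by it, after seeing the data. IER3 gave more than 50% of the rule UMIs in 40 of 94 high cells at 0 mM and in 39 of 80 at 2 mM. The 2 kinds were each set against the same low cells, so their ratios share that reference. Among all compared genes, 105 (3%) were higher and 82 (2.34%) lower in both libraries in the cells led by IER3. In the other high cells 175 (4.99%) were higher and 240 (6.85%) lower.

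NF-kB genes were high in both kinds of high cell. Their summed level was 4911 CPM in the cells led by IER3 and 5174 in the other high cells at 0 mM, against 2084 in low cells. At 2 mM these levels were 4445, 7555 and 1928 CPM. All 7 compared members passed 1.5-fold in both libraries in the cells led by IER3, and 6 of 7 in the others. Cytokines stood at 2019 and 1570 CPM against 581 in low cells at 0 mM, and at 2513 and 3121 against 1135 at 2 mM. At 0 mM, 3 of the 40 cells led by IER3 held 78.6% of their cytokine UMIs.

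The summed interferon-stimulated level differed between the 2 kinds. At 0 mM they summed to 8989 CPM in the cells led by IER3, 17898 in the other high cells and 7318 in low cells. At 2 mM the sums were 7358, 29738 and 6571 CPM. The ratio over low cells was therefore 1.23 (1.17 to 1.29) and 1.12 (1.05 to 1.196) in the cells led by IER3, and 2.45 (2.35 to 2.54) and 4.53 (4.36 to 4.69) in the others. Of 20 compared genes, 2 were higher and 2 lower in both libraries in the first kind, and 13 higher and 0 lower in the second.

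IFIT1, for example, stood at 414 CPM in the cells led by IER3, 1335 in the other high cells and 499 in low cells at 0 mM, and at 302, 2246 and 422 CPM at 2 mM. ISG15 stood at 1748, 4792 and 1756 CPM at 0 mM, and at 1925, 6859 and 1254 CPM at 2 mM. SOD2 differed less, with 1265 and 1123 CPM against 367 at 0 mM and 1192 and 1693 against 245 at 2 mM. In the other high cells, 3 cells held 23.0% of the interferon-stimulated UMIs at 0 mM and 35.0% at 2 mM. In the cells led by IER3 the shares were 36.7% and 43.7%. High cells were also grouped by the gene with the most rule UMIs, whatever its share. By this wider rule IER3 came first in 56 cells at 0 mM and 46 at 2 mM, against the 40 and 39 cells led by IER3. Some of the other high cells are thus absent from the groups given here, which were not alike in summed interferon-stimulated level. At 2 mM, 16 cells with JUN first had 31713 CPM, 7 with JUNB 62302 and 2 with ATF3 40231. In that library 4 cells with FOS first had 4213, 4 with IER2 4391 and 1 with EGR1 5345, below the 6571 of low cells. At 0 mM, cells with JUN, JUNB and EGR1 first had 26348, 26311 and 26398 CPM. There 12 cells with FOS first had 12411 and 2 with IER2 3658, against 7318 in low cells.

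S phase transcripts had a lower sum in the cells not led by IER3. S phase genes summed to 1558 CPM in the cells led by IER3, 647 in the others and 1951 in low cells at 0 mM, and to 1109, 430 and 1846 CPM at 2 mM. G2/M genes gave 4670, 5280 and 9085 CPM at 0 mM and 6060, 2238 and 6021 CPM at 2 mM, so the 2 kinds had no common order for this list in the 2 libraries. These sums rested on few cells: 3 cells held 63.5% of the G2/M UMIs of the other high cells at 0 mM and 52.3% of those of the cells led by IER3 at 2 mM, and 52.8% and 49.7% of the S phase UMIs of the cells led by IER3. The other immediate early genes stood at 4744, 6209 and 2992 CPM at 0 mM and at 4257, 6242 and 2819 CPM at 2 mM. By the gene with the most rule UMIs, the 12 cells with FOS first at 0 mM had 12983 CPM of G2/M genes, above the 9085 of low cells. The other groups at 0 mM had 1295 to 4252 CPM, and every group at 2 mM lay below the low cells.

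**Figure D5:**
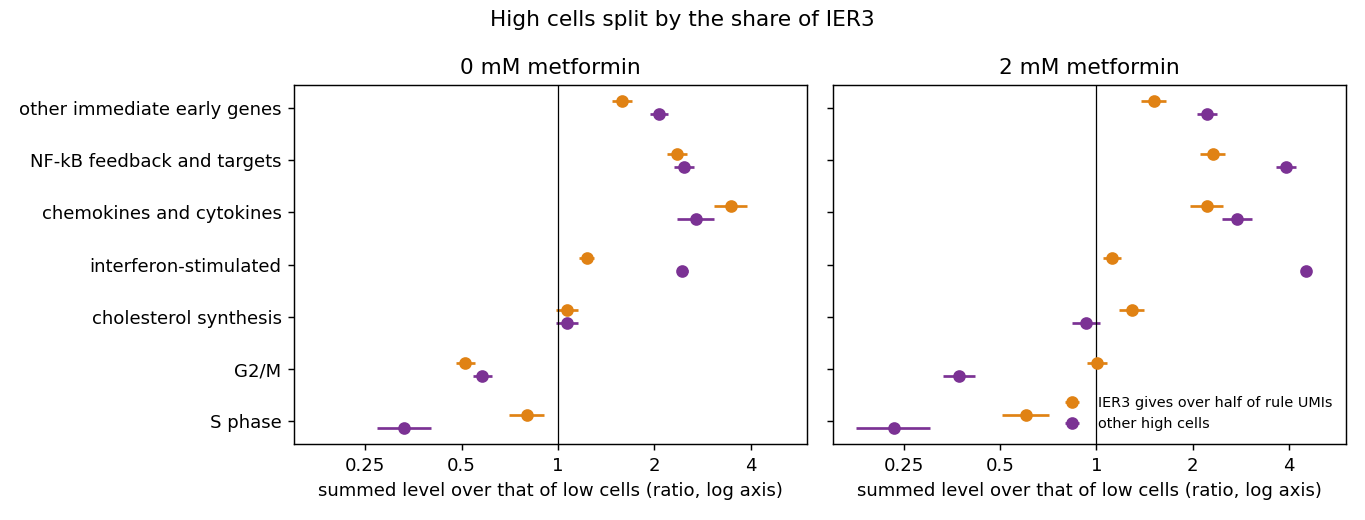
Summed level of 7 gene lists in high cells as a ratio over low cells of the same library on a log axis, for high cells in which IER3 gives more than 50% of rule UMIs and for the other high cells; bars are exact 95% intervals for counting error. The interferon-stimulated list lies at 1.23 and 1.12 in the first kind and at 2.45 and 4.53 in the second, while the NF-kB list is above 2 in both kinds and both libraries.

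Ranking all cells anew gave the same order for the interferon-stimulated list. These ranks use the same cells and the same 7 genes as the division above, so they restate it and are no separate check. Of the high cells, 59 of 94 at 0 mM and 42 of 80 at 2 mM were also highest without IER3, and 59 and 43 by IER3 alone. By the 6 genes without IER3, 14 of 20 interferon-stimulated genes were higher in both libraries, with median log2 ratios of 1.80 and 2.70, where 3.97% of all genes were higher and 3.22% lower. By IER3 alone, 0 were higher and 4 were lower, with medians of -0.10 and -0.89, where 1.46% of all genes were higher and 1.48% lower. NF-kB genes kept a positive median by either rank, 1.43 and 1.65 without IER3 and 0.69 and 0.33 by IER3 alone, with 6 and 2 of 7 higher in both libraries, where the 2 kinds of high cell had 6 and 7. Cholesterol synthesis genes had 1 of 16 higher without IER3 and 4 of 16 by IER3 alone, where the 2 kinds of high cell had 1 and 0. The gene with the most rule UMIs in a high cell, whatever its share, was IER3 in 56 cells at 0 mM and 46 at 2 mM. It was JUN in 12 and 16, FOS in 12 and 4, JUNB in 6 and 7, and EGR1 in 6 and 1. IER2 was first in 2 and 4 cells, and ATF3 in 0 and 2.

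The genes whose counts per cell followed the rule share most closely, after thinning to 1000 UMIs, were DUSP1, NFKBIA, KLF4, IFIT3, SOD2, ISG15, SAT1, IL6, IFIT2 and ZFP36. Their mean Pearson correlation of the 2 libraries ran from 0.185 for DUSP1 to 0.124 for ZFP36, over 944 and 800 cells that share library and depth. Values this low in sparse counts are given as a description only. Pairs of the 7 rule genes had correlations between -0.06 and 0.23.

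The 2 libraries held different levels of the rule genes. Over all ranked cells the sum of the 7 genes was 1091 CPM without and 765 CPM with metformin, or 0.702 times as high (0.668 to 0.737). EGR1 stood at 38.6 and 12.5 CPM (ratio 0.324, 0.223 to 0.461), FOS at 102 and 39.8 CPM (0.391, 0.318 to 0.479) and IER3 at 577 and 394 CPM (0.682, 0.637 to 0.731). JUNB had a ratio of 0.680, and JUN (0.938), IER2 (0.943) and ATF3 (0.897) had intervals that span 1. The cut that took 94 of 944 cells at 0 mM was reached by 24 of 800 cells (3%, exact binomial interval 1.93% to 4.43%) at 2 mM. At 1000 UMIs per cell, 15.04% of cells at 0 mM and 6% at 2 mM held at least 3 rule UMIs.

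Within the high cells, which take the same share of each library by construction, FOS was 0.313 times (0.219 to 0.439) and EGR1 0.294 times (0.178 to 0.466) as high at 2 mM as at 0 mM. JUN (0.918), JUNB (1.05) and IER2 (1.22) in the same cells had intervals that span 1. Outside the rule, DUSP1 stood at 317 and 188 CPM in high cells (0.592, 0.416 to 0.833), and IFNL1 at 323 and 850 CPM. With 1 library per dose, the dose and the library cannot be told apart in any of these values.

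High cells were shallower than low cells at 0 mM, with median depths of 2690 and 3725.5 UMIs, and close to them at 2 mM, with 2957.5 and 3052.5. Along the rank, the last of 10 equal groups held only cells without a rule UMI and had a median of 1336.5 UMIs at 0 mM and 1293 at 2 mM, and 122 and 196 low cells in all held no rule UMI. At 2 mM group 9 also held only such cells, with a median of 2714.5 UMIs. The cells of these groups are tied there, so column order alone divided them and their depths show no trend along the rank. At a minimum of 2000 UMIs, 138 genes were higher and 122 lower. Mitochondrially encoded transcripts took 4.72% of UMIs in high and 5.77% in low cells at 0 mM, and 4.73% and 5.31% at 2 mM. Ribosomal protein transcripts took 8.19% and 10.4%, and 8.47% and 10.46%. Genes detected at 1000 UMIs were near equal, with medians of 696.5 and 693, and of 702.5 and 708.5.

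No barcode was shared by the libraries. At 0 mM, 12 of 94 high cells had another ranked barcode 1 base away, and 10 such pairs lay within the high cells; at 2 mM this held for 6 of 80 cells and 0 pairs. With such barcodes merged, 132 genes were higher and 131 lower in both libraries. The labelled line was checked on its markers. VIM, a mesenchymal filament protein, stood at 3282 CPM in high and 3312 in low cells at 0 mM and at 1475 and 1520 at 2 mM. SPARC, also listed as a marker of the line, went against this, with no UMI in high cells and 1 and 2 in low cells. Of the markers listed as low or absent, ESR1 had no UMI in high or low cells. EPCAM stood at 14.5 and 29.5 CPM in high and low cells at 0 mM and at 40.5 and 47.0 at 2 mM. ERBB2 stood at 14.5 and 23.9 CPM, and at 14.7 and 13.9. Of the leukocyte list, 4 of 11 markers were in the table and summed to 14.5 CPM in high, 36.4 in middle and 15.2 in low cells at 0 mM, and to 51.5, 28.5 and 22.5 CPM at 2 mM, with PTPRC, the defining marker, at 0 in the high cells of both. Fibroblast markers (7 of 7 in the table) gave 2 and 0 UMIs in high cells, and the 1 of 6 endothelial markers in the table, KDR, gave 0 and 2.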

How the data were processed

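The authors deposited whole counts of UMIs for 19826 genes in 2000 barcodes, 1000 per library; reads were handled with bcl2fastq and STAR 2.5.0a on build hg19, per the submitters' processing notes. How barcodes were selected, UMIs collapsed and strand used is not given in the sources used here, so genes that overlap or resemble another carry uncertain counts.

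From these counts, cells with at least 1000 UMIs were ranked by the share of the 7 genes (ties by column order); 56 and 200 barcodes were too shallow. Ranked cells held 4351972 UMIs at 0 mM and 3118941 at 2 mM, with medians of 3665 and 3082 per cell. Counts of a class were summed and scaled to CPM; 3 counts correspond to 8.72 and 11.03 CPM in high cells. Ratios have exact conditional Clopper-Pearson 95% intervals, levels exact Poisson and shares exact binomial ones. Genes counted as higher or lower at 1.5-fold in both libraries. No doublets were called; leaving out the 5% of barcodes with the most UMIs was an alternative. The ranking and the ratios were tested on simulated data.

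The members and the 28 gene lists were chosen with earlier results of these data known. Named are the rule genes, the compared other immediate early genes, up to 3 highest and 3 lowest of each list, the 15 highest and 15 lowest genes by the interval bound nearest 1 (leaving out genes of ribosomal proteins, mitochondrially encoded genes and their pseudogenes), and the 10 genes most alike. Other genes were named after their values were seen: MYL9, IFIT1, NR4A2, FOSB, FOSL2, the cell markers and genes named for a promoter match. Promoters are RefSeq, GRCh38.p14, matched by symbol. Python 3.11.15, numpy 2.4.6, scipy 1.17.1 and, for TMM factors only, edgeR 4.0.16 were used. Values of some single genes are not reported here.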

Additional observations from a re-analysis of the deposited data

Results flagged for a closer look

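Barcodes under 1000 UMIs, which no comparison used, also held the 7 rule genes. At 0 mM, 56 such barcodes gave 52 of 51073 UMIs, or 1018 CPM, and at 2 mM 200 barcodes gave 114 of 149583 UMIs, or 762.1 CPM. Both lie above the levels that a count of 0 allows, 58.7 and 20.1 CPM, and the ranked cells had 1091 and 765 CPM. Of the named genes, 3 had log2 ratios of high over low cells of opposite sign in the libraries, with the intervals of the ratio on opposite sides of 1. SAA1, an acute phase protein, had -1.21 at 0 mM and 0.20 at 2 mM. PKM, pyruvate kinase, had 0.68 and -0.21. KRT19, an epithelial keratin, had 0.60 and -0.97. With 1 library per dose these differences were not tested.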

How the results depend on the processing

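The median log2 ratios of the other immediate early, NF-kB, interferon-stimulated, S phase and G2/M lists kept their sign under all alternatives run, except where given here. Values at 0 mM precede those at 2 mM. Ranking on thinned counts left 61 genes higher and 32 lower, with an NF-kB median of 0.80 and an S phase median of -0.54 at 2 mM, and G2/M medians of -1.07 and -0.45. Equal weights for the 7 genes gave interferon medians of 2.03 and 2.68 and G2/M medians of -0.75 and -0.48. Ranking on 1 set of UMIs and measuring on the other gave a G2/M median of -0.30 at 2 mM. The highest 5% gave G2/M medians of -0.58 and -0.22. The highest 20% gave 50 genes lower, an S phase median of -0.84 at 2 mM and a G2/M median of -0.68 at 0 mM. Against all other cells, 71 genes were lower and G2/M medians were -0.67 and -0.44. Merged barcodes gave a G2/M median of -0.83 at 2 mM. With the deepest 5% of barcodes left out it was -1.04 at 0 mM and the 7 genes took 0.114% of UMIs there, in place of 0.109%. Cells weighted equally gave -0.76 and 0.120%. Thinning before summing gave 191 genes lower and a G2/M median of -0.74 at 0 mM. TMM factors gave 97 higher, 211 lower and -1.11 for G2/M at 0 mM. A minimum of 100 CPM gave 71 higher and 51 lower, no minimum 565 and 642, and 2-fold 47 and 20, by their construction.

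Alternatives chosen after seeing the data follow. Ranking without IER3 gave medians of 1.38 for other immediate early genes at 2 mM, 1.80 and 2.70 for interferon and -0.74 for G2/M at 0 mM. Ranking by IER3 alone gave 51 higher and 52 lower, 0.33 for NF-kB, -0.81 for S phase and -0.40 for G2/M at 2 mM, and it turned interferon to -0.10 and -0.89. It also turned the mean log2 ratios of IFNL1 to -1.81, IFIT2 to -0.56, CH25H to -2.27 and CITED2 to -0.060. Without cells that held an IFNL1 UMI, the G2/M median was -1.49 at 0 mM. Without the 10% of cells highest in interferon-stimulated UMIs, CH25H turned to -1.78. In cells with few cycle transcripts, S phase medians were 0.37 and -0.68, G2/M medians 0.065 and -0.054, and UBE2C had 0.53. The cause of these changes was not tested. No paired analysis was possible because each dose has 1 library. Depth limits the placing of single cells, since high cells held a median of 11 and 8 rule UMIs, and genes under 50 CPM were not compared.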
